A study of Mus musculus with 6 samples.

Results

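The antioxidant, glutathione and NRF2 genes of the liver were compared between telmisartan-treated and vehicle-treated STAM mice. The 40 genes were taken from a list written by function, which was chosen with earlier results of these data known. A gene was measured where the array has a probe set annotated to that gene symbol alone. This was so for 34 of the 40, out of 22087 genes in all, and each was read from its brightest probe set. Prdx1, Tkt and Ftl1 lie only on probe sets shared with other symbols, and G6pdx, Prdx5 and Prdx6 are not listed in the probe table used here, so these 6 genes were not analysed here.

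Both groups were STAM mice, a model of diabetic steatohepatitis in male C57BL/6J animals. All received 200 μg of streptozotocin, a toxin of pancreatic beta cells, 2 days after birth and, from 4 weeks of age, chow with 60 kcal% of fat. From 6 to 12 weeks of age one group was given telmisartan, an angiotensin II receptor blocker, orally at 5 mg/kg per day in 0.5% carboxymethyl cellulose, and the other was given the vehicle. Liver RNA of 3 of the 7 mice per group was hybridised to Affymetrix Mouse Gene 2.0 ST arrays, each mouse on its own array. Every group analysed here had the streptozotocin and the diet, so that no healthy liver enters the comparison. Values are log2 of the deposited intensities. A gene is called higher or lower with telmisartan at an unadjusted limma p under 0.05 and a ratio of at least 1.2-fold, which is 0.263 on the log2 scale. These thresholds come from the methods of the study.

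NRF2, encoded by Nfe2l2, is a transcription factor that is held in the cytosol by KEAP1 and sent for degradation. Oxidants and electrophiles modify KEAP1, and NRF2 then enters the nucleus, pairs with a small MAF protein and binds the antioxidant response element. Its targets make glutathione, reduce thioredoxin and glutathione, supply NADPH and clear reactive carbonyls. Superoxide dismutases, catalase, glutathione peroxidases and peroxiredoxins remove superoxide and peroxides, and much of this capacity of the body lies in hepatocytes.

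The genes fell into 6 functions, and in each of them 1 gene was called lower with telmisartan, while no gene was called higher. The 6 lower genes were Nfe2l2 itself, Gclm of glutathione synthesis, Txnrd1 of the thioredoxin system, Pgd of NADPH supply, Gpx3 of the peroxidases and Ugdh, another NRF2 target. Their log2 fold changes lay between -0.55 and -0.29. They were 17.6% of the 34 measured genes, where 3.5% of all genes and 5.37% of the 8518 genes with a mean log2 intensity of at least 4 were called lower, and 3.08% and 2.92% were called higher. Of these 34 genes, 31 had a mean of at least 4, and Slc7a11, Gpx2 and Cbr3 did not. The log2 fold change was below 0 for 26 of the 34, or 76.5%, against 50.2% of all genes and 56.3% of those with a mean of at least 4. The median was -0.12 over the 34 genes and -0.00059 over all genes. As the genes were chosen with earlier results of these data known, these shares describe the list and do not test it. No limma adjusted p over all probe sets was under 0.05 for any member (lowest limma adjusted p = 0.695), while 8 of the 34 passed an unadjusted p of 0.05 without regard to fold, all on the lower side, where 3.74% of all genes did so. With the methods' t-test 5 of the 6 were called lower, all but Gpx3, and no member was higher, against 1.75% lower and 1.47% higher of all genes.

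The stretches of promoter that hold the core letters of the antioxidant response element are shown for the genes that were called lower, since that element is where NRF2 is known to bind. RefSeq promoters of GRCm38.p6, each of 250 bases before and 50 bases after a start, were found for 31 of the 34 measured genes. Both strands were searched for TGACNNNGC, which occurs in 12.4% of 32851 promoters and in at least 1 promoter of 14.0% of 27025 genes. It was found for 5 of the 6 genes called lower, all but Gpx3, and for 3 of the 25 genes with a promoter that were not called. These shares are a description of the letters in this window, and a match is not a site of binding. The bases beside TGACNNNGC were left free, so a match can differ there from longer forms of the element. The base before TGAC was c for Nfe2l2 and Pgd, t for Gclm and a for Txnrd1. Forms with G in place of C after TGA were not searched, nor was sequence outside this window. A gene counted as without a match may hold such a form, or a match further away. Whether NRF2 has a part in the lower levels was not tested. The 250 bases before the start are given 5′ to 3′ on the strand of the gene, with the match in capitals (as the reverse complement where it lies on the opposite strand).
Nfe2l2, chr2:75704664-75704913, minus strand: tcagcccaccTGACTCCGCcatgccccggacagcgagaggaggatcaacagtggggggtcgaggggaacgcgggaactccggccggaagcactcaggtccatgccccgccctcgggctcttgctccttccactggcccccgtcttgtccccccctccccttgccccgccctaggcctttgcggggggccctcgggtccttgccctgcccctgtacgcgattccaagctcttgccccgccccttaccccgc
Gclm, chr3:122245307-122245556, plus strand: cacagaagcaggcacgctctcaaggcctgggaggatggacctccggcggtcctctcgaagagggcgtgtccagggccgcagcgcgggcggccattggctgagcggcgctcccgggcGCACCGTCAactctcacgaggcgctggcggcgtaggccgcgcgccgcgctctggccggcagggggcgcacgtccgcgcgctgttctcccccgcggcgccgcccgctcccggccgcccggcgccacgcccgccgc
Txnrd1, chr10:82858956-82859205, plus strand: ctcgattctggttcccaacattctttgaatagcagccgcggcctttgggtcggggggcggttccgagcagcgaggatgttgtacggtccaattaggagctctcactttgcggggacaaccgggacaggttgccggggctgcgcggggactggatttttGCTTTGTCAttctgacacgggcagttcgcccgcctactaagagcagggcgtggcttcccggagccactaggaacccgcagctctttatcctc
Ugdh, chr5:65435843-65436092, minus strand: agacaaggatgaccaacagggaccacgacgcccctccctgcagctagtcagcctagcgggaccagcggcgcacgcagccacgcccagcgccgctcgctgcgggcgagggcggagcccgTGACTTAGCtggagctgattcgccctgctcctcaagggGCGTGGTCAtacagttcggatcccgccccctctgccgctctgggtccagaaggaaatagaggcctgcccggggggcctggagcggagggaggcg
Ugdh had 2 matches in this stretch and the others 1 each. Txnrd1 has 3 annotated starts, and the match stood before 1 of them.

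The match of Pgd lay just after 1 of its 2 annotated starts, and those of Mafg, Sod1 and Srxn1, which were not called, are shown beside it. The windows of 29 bases are turned so that the capitals read TGACNNNGC.
Pgd: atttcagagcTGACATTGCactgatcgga
Mafg: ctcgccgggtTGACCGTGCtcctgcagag
Sod1: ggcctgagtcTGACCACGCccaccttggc
Srxn1: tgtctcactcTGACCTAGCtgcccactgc
The capitals of Sod1 have the same letters as the second match of Ugdh on the strand opposite to that gene. Both strands were also searched for TGANTCA, the element bound by AP-1, which occurs in 7.81% of the promoters and overlaps with TGACNNNGC in 0.454%. Among the measured genes it was found for Srxn1, in 2 places, and for Osgin1, and it overlapped with TGACNNNGC in neither. With the bases beside them, the second place in Srxn1 and, on the opposite strand, that in Osgin1 read TGAGTCAGC. The search for TGACNNNGC did not cover that form.

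Of the 5 genes of NRF2 control, Nfe2l2 was called lower and the others were not. Nfe2l2 (probe set 17386700) was at 7.25, 7.35 and 7.25 in log2 intensity on the vehicle arrays and at 6.91, 6.92 and 6.91 on the telmisartan arrays. All 3 telmisartan livers lay below all 3 vehicle livers and close to one another. This was a fold change of -0.37 ± 0.10 on the log2 scale (± SE, limma, unadjusted p = 0.0046, adjusted p = 0.695), or 0.774 of the vehicle level. It was called when any 1 array was left out, with log2 fold changes from -0.39 to -0.33.
Keap1, the inhibitor of NRF2, had a log2 fold change of 0.03 (95% confidence interval -0.23 to 0.28). Its second, dim probe set gave 0.00. Mafg, the small MAF partner, gave 0.10 (95% confidence interval -0.17 to 0.38), and Nfe2l1, the related factor NRF1, gave -0.04 (95% confidence interval -0.36 to 0.28). The levels of these 3 genes overlapped between the groups.
Sqstm1 encodes p62, an autophagy receptor that binds KEAP1. It stood at 9.53, 9.56 and 9.62 with vehicle and at 9.45, 9.17 and 9.30 with telmisartan. The groups did not overlap, but its -0.26 ± 0.11 on the log2 scale (± SE, limma, unadjusted p = 0.0443) was just short of 1.2-fold, and Sqstm1 was not called.

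**Figure D1:**
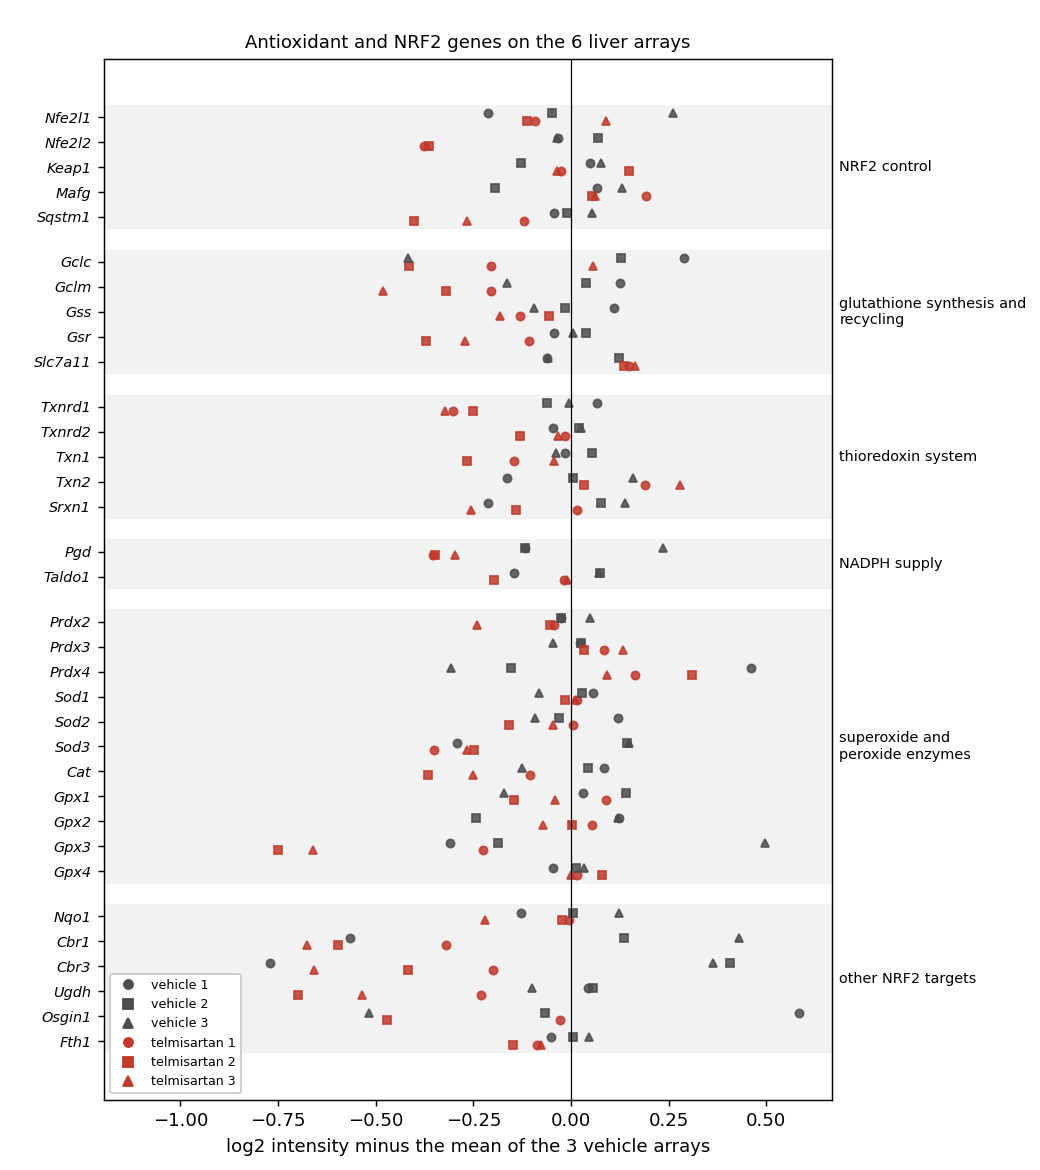
Levels of the 34 measured genes on each array, as log2 intensity minus the mean of the 3 vehicle arrays of that gene (x axis), grouped by function (right). Grey symbols are vehicle and red symbols telmisartan livers, with 1 symbol shape per replicate number. The 3 telmisartan symbols of Nfe2l2 lie on top of each other, while Cbr1, Cbr3 and Osgin1 are spread widely within the vehicle group.

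Among the genes of glutathione synthesis and recycling, Gclm was called lower. Gclm encodes the modifier subunit of glutamate-cysteine ligase, the enzyme of the first step of glutathione synthesis. It was at 8.94, 8.85 and 8.65 with vehicle and at 8.61, 8.49 and 8.33 with telmisartan (probe set 17402283). The groups lay side by side without overlap, vehicle 3 and telmisartan 1 being nearest to each other. Gclm thus differed by -0.34 ± 0.12 on the log2 scale (± SE, limma, unadjusted p = 0.0256, adjusted p = 0.696), and it was not called without vehicle 1, vehicle 2 or telmisartan 3 (p up to 0.0897).
Gclc, the catalytic subunit of the same enzyme, was not called. It was at 9.57, 9.41 and 8.87 with vehicle and at 9.08, 8.87 and 9.34 with telmisartan, so that the groups overlapped. Its log2 fold change was -0.19 with a 95% confidence interval of -0.64 to 0.27.
Gsr, the reductase that returns oxidised glutathione to its reduced form, was at 7.40, 7.48 and 7.44 against 7.33, 7.07 and 7.17. Every telmisartan liver was below every vehicle liver, and the difference of -0.25 ± 0.11 in log2 (± SE, limma, unadjusted p = 0.0498) did not reach 1.2-fold. Gss, the synthetase of the second step, gave -0.12 (95% confidence interval -0.36 to 0.12). Slc7a11, the cystine importer, was near the lower end of the arrays, at 1.51, 1.70 and 1.52 with vehicle and at 1.72, 1.71 and 1.74 with telmisartan. Its groups did not overlap, and the log2 fold change of 0.15 (95% confidence interval -0.09 to 0.39) was not called.

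In the thioredoxin system, Txnrd1, the cytosolic thioredoxin reductase, was called lower. Its levels were 7.88, 7.76 and 7.81 with vehicle and 7.52, 7.56 and 7.49 with telmisartan (probe set 17235915). The telmisartan livers all lay below the vehicle livers, and the distance between the group means exceeded the spread within either group. Txnrd1 differed by -0.29 ± 0.10 in log2 (± SE, limma, unadjusted p = 0.0168, adjusted p = 0.695). Without vehicle 1 it was -0.26, short of 1.2-fold (limma, unadjusted p = 0.0422).
Txn1, the cytosolic thioredoxin, stood at 7.22, 7.29 and 7.20 against 7.09, 6.97 and 7.19. Its groups did not overlap, with telmisartan 3 next to vehicle 3, and the log2 fold change of -0.15 had a 95% confidence interval of -0.39 to 0.09. The mitochondrial pair gave -0.06 for the reductase Txnrd2 and 0.17 for the thioredoxin Txn2, both with overlapping groups. Srxn1, the sulfiredoxin that repairs over-oxidised peroxiredoxins, gave -0.13 (95% confidence interval -0.43 to 0.17).

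Pgd, 6-phosphogluconate dehydrogenase, makes NADPH in the pentose phosphate pathway and was called lower. It was at 6.27, 6.27 and 6.62 with vehicle and at 6.03, 6.04 and 6.09 with telmisartan (probe set 17433040). The telmisartan livers were close to each other and below all vehicle livers, of which vehicle 3 was the highest. The difference of -0.33 ± 0.12 in log2 (± SE, limma, unadjusted p = 0.0268, adjusted p = 0.698) was no longer called without vehicle 3 (log2 fold change of -0.22), telmisartan 1 or telmisartan 2 (p up to 0.0906). Taldo1, transaldolase of the same pathway, gave -0.07 (95% confidence interval -0.34 to 0.19), with overlapping groups.

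**Figure D2:**
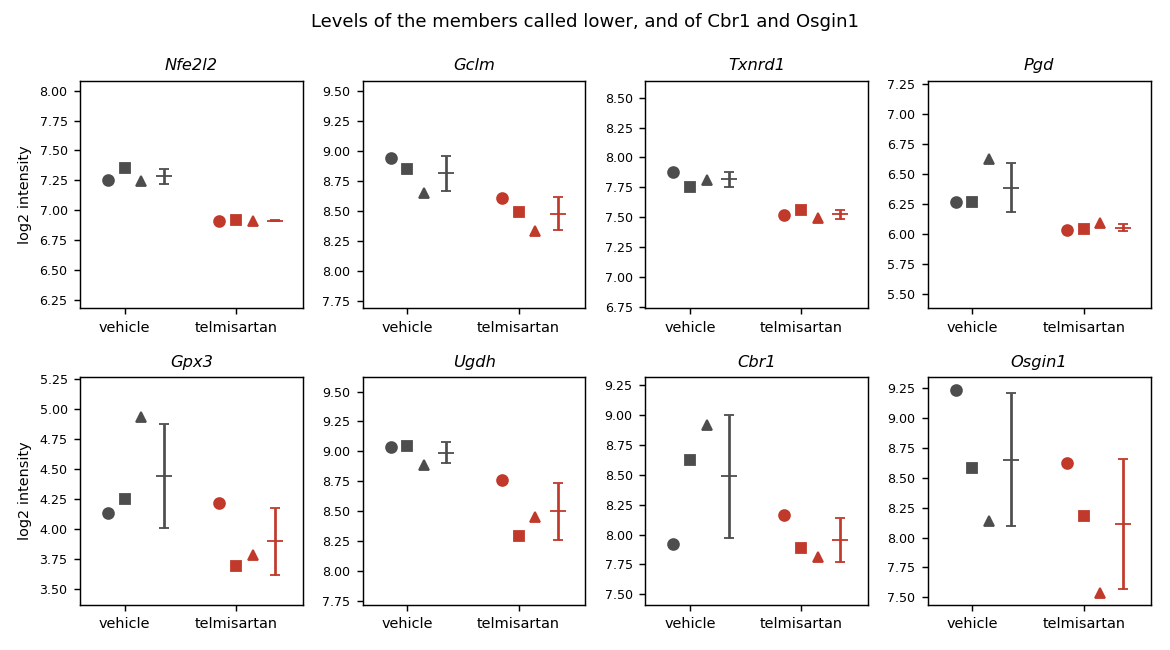
Log2 intensity (y axis, the same span in every panel) of the 6 genes called lower and of Cbr1 and Osgin1 in the vehicle (grey) and telmisartan (red) livers. Symbols are single arrays, with the shape giving the replicate number, and bars are the mean ± SD of 3 arrays. The groups do not overlap for Nfe2l2, Gclm, Txnrd1, Pgd and Ugdh, and they overlap for Gpx3, Cbr1 and Osgin1.

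Of 11 measured enzymes of superoxide and peroxide removal, 1 was called lower, and the median log2 fold change of -0.03 was near that of all genes. The lower gene was Gpx3, a secreted glutathione peroxidase. It was at 4.13, 4.25 and 4.94 with vehicle and at 4.21, 3.69 and 3.78 with telmisartan (probe set 17249787). The groups overlapped, since telmisartan 1 lay above vehicle 1, and vehicle 3 stood above the rest. Gpx3 differed by -0.55 ± 0.23 in log2 (± SE, limma, unadjusted p = 0.0412, adjusted p = 0.703). It was not called with the methods' t-test, nor without vehicle 3 (-0.30), telmisartan 2 or telmisartan 3 (p up to 0.139).
The intracellular peroxidases Gpx1 and Gpx4 gave -0.03 (95% confidence interval -0.31 to 0.25) and 0.03 (95% confidence interval -0.19 to 0.25). Gpx2 was dim, at a mean of 1.91, and gave -0.01.
The superoxide dismutases Sod1, of the cytosol, and Sod2, of mitochondria, gave 0.00 (95% confidence interval -0.22 to 0.23) and -0.07 (95% confidence interval -0.32 to 0.18). Sod1 and Gpx4 were the 2 of the 34 genes whose interval lay within 1.2-fold in both directions. Sod3, the extracellular dismutase, was at 5.71, 6.14 and 6.15 with vehicle and at 5.65, 5.75 and 5.73 with telmisartan. Vehicle 1 lay among the telmisartan livers, and the difference of -0.29 ± 0.14 in log2 (± SE, limma, unadjusted p = 0.0712) was not called. It was called without vehicle 1, at -0.43, and was at -0.21 without vehicle 3.
Cat, the peroxisomal catalase, was at 12.18, 12.14 and 11.97 against 11.99, 11.73 and 11.84, a log2 fold change of -0.24 (95% confidence interval -0.51 to 0.03) with vehicle 3 below telmisartan 1. Cat was called lower, at -0.31, without telmisartan 1 and, at -0.30, without vehicle 3, and it was at -0.18 without telmisartan 2.
Peroxiredoxins did not pass the thresholds. Prdx2, of the cytosol, was at 5.78, 5.78 and 5.85 with vehicle and at 5.76, 5.75 and 5.56 with telmisartan, a log2 fold change of -0.11 (95% confidence interval -0.35 to 0.13). Prdx3, of mitochondria, was at 7.78, 7.79 and 7.71 against 7.85, 7.79 and 7.90, a log2 fold change of 0.08 (95% confidence interval -0.14 to 0.31). In both the groups did not overlap, although their nearest arrays were close. Prdx4, of the endoplasmic reticulum, was at 5.00 on vehicle 1 and at 4.39 and 4.23 on the other vehicle arrays, against 4.63 to 4.85 with telmisartan. Its log2 fold change was 0.19, the largest above 0 of the module, but it ranged from 0.04 without vehicle 3 to 0.42 without vehicle 1, where alone it was called higher.

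The 6 further NRF2 targets all had a log2 fold change below 0, with a median of -0.46, and Ugdh was called lower. Ugdh, UDP-glucose dehydrogenase, makes the UDP-glucuronic acid used in glucuronidation. It stood at 9.03, 9.05 and 8.89 with vehicle and at 8.76, 8.29 and 8.45 with telmisartan (probe set 17448308). All telmisartan livers were lower, telmisartan 1 by the least. Ugdh differed by -0.49 ± 0.14 in log2 (± SE, limma, unadjusted p = 0.00695, adjusted p = 0.695), to 0.713 of the vehicle level, and it was called when any 1 array was left out.
Cbr1, a carbonyl reductase, was at 7.92, 8.62 and 8.92 with vehicle and at 8.17, 7.89 and 7.81 with telmisartan. Vehicle 1 lay among the telmisartan livers. Its difference was -0.53 ± 0.24 in log2 (± SE, limma, unadjusted p = 0.0536), and the second probe set gave -0.49 in the same order of arrays within the vehicle group. Cbr3, its homologue, was at 3.09, 4.27 and 4.23 against 3.66, 3.45 and 3.21, with vehicle 1 the lowest of all, and gave -0.43. Without vehicle 1 both were called lower, at -0.81 each. Cbr1 was at -0.32 without vehicle 3, and Cbr3 was at -0.22 without vehicle 2 and at -0.24 without vehicle 3, none of which was called.
Osgin1, a growth inhibitor induced by oxidative stress, had the widest levels of this group with telmisartan. It was at 9.23, 8.58 and 8.14 with vehicle and at 8.62, 8.18 and 7.54 with telmisartan, a log2 fold change of -0.54 (95% confidence interval -1.28 to 0.20). Here vehicle 1 was the highest of all livers, the reverse of Cbr1 and Cbr3. The value rested on single arrays, from -0.25 without vehicle 1 or without telmisartan 3 to -0.79 without vehicle 3 or without telmisartan 1, where it was called lower.
Nqo1, the quinone reductase often used as a readout of NRF2, gave -0.08 (95% confidence interval -0.35 to 0.18), at 5.17, 5.30 and 5.42 against 5.29, 5.27 and 5.07, with overlapping groups. Fth1, the ferritin heavy chain that stores iron, was at 11.65, 11.71 and 11.75 against 11.62, 11.56 and 11.63, which do not overlap. Its log2 fold change of -0.10 (95% confidence interval -0.32 to 0.12) was not called.

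**Figure D3:**
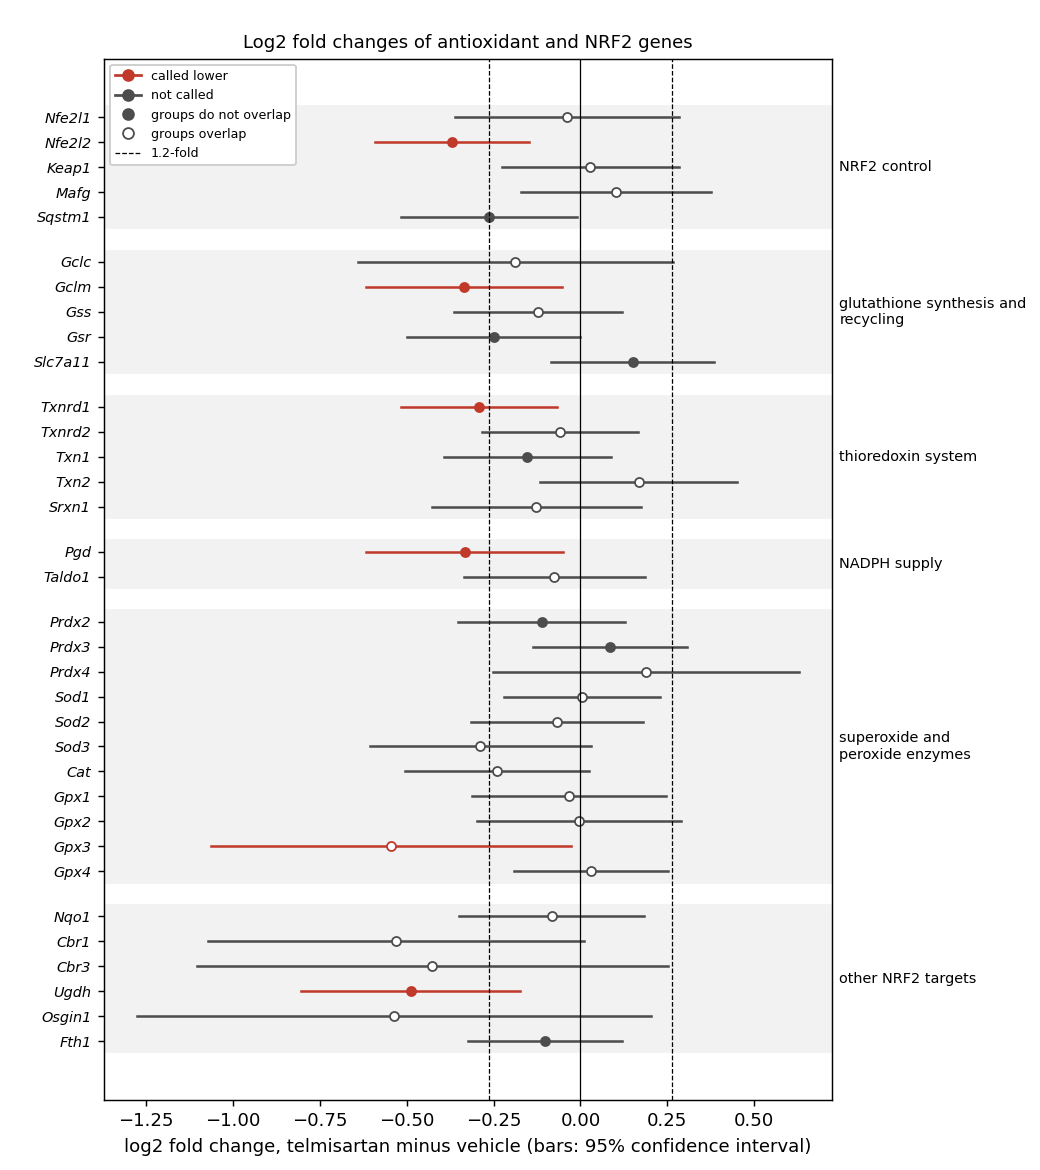
Log2 fold change of each measured gene, telmisartan minus vehicle (x axis), with its 95% confidence interval from limma, grouped by function. Red marks genes called lower, filled points mark genes whose groups do not overlap, and dashed lines mark 1.2-fold. The intervals of 26 of the 34 genes include 0.

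The levels of the 2 groups did not overlap for 12 of the 34 genes, or 35.3%, against 12.4% of all genes and 16.1% of those with a mean of at least 4. Of the 12 genes, 10 were lower with telmisartan (29.4%, against 6.35% of all genes and 9.7% of those with a mean of at least 4) and Slc7a11 and Prdx3 were on the higher side, where 6.08% of all genes and 6.43% of those with a mean of at least 4 stood. For each of these genes the exact permutation test, two-sided with 10 possible splits, gave p = 0.1, the smallest p that this design allows. Of the 6 genes called lower, 5 were among them, Gpx3 being the exception. A ratio past 1.2-fold downwards, without a test, was seen for 10 of the 34 genes and upwards for none. Downwards it was seen for 6.85% of all genes and 9.61% of those with a mean of at least 4. The upward share of all genes was not computed.
Averaged over the 34 genes, the arrays deviated from the mean of all 6 by 0.05, 0.09 and 0.10 on the log2 scale for vehicle 1, 2 and 3, and by -0.0019, -0.12 and -0.11 for telmisartan 1, 2 and 3. Telmisartan 1 thus lay nearest to the vehicle livers. The functions did not order the vehicle livers alike. The glutathione genes were highest on vehicle 1 (0.16) and lowest of the vehicle arrays on vehicle 3 (-0.07), while the further NRF2 targets were lower on vehicle 1 (0.03) than on vehicle 2 (0.27) and vehicle 3 (0.24). The spread within the vehicle group exceeded 0.5 for Gclc, Prdx4, Gpx3, Cbr1, Cbr3 and Osgin1, and within the telmisartan group for Gpx3 and Osgin1.
Over all probe sets, vehicle 1 also had the lowest mean correlation with the other arrays, 0.985 against 0.986 to 0.989, which is across probe sets and not across independent replicates.

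Wider lists around the module were read in the same way. Of 152 measured genes in 8 lists, 8 were called lower and 6 higher, where 3.5% of all genes were lower and 3.08% higher. Of the 152, 114 had a mean of at least 4, and of all genes with such a mean 5.37% were lower and 2.92% higher. The median log2 fold change was -0.04. The count of lower genes was 14 without vehicle 1, 5 without vehicle 2 and 18 without telmisartan 1. Of all genes 4.41%, 2.83% and 4.15% were lower in these fits.
The partners of NRF2 and the machinery of its degradation had no call among 15 genes, with a median of -0.07.
Of 29 further NRF2-responsive genes, 2 were called lower and 1 higher, and 24 had a log2 fold change below 0, with a median of -0.21. Below 0 lay 50.2% of all genes and 56.3% of those with a mean of at least 4. Hmox1, the inducible heme oxygenase, was at 5.04, 6.23 and 6.12 with vehicle and at 5.18, 5.20 and 4.60 with telmisartan. Vehicle 1 lay among the telmisartan livers, as for Cbr1, and the difference was -0.80 ± 0.31 in log2 (± SE, limma, unadjusted p = 0.0314). Hmox1 was not called with the methods' t-test or without vehicle 2, vehicle 3 or telmisartan 3. Blvrb, a biliverdin reductase, gave -0.53 and was not called if vehicle 2, telmisartan 2 or telmisartan 3 was left out or under the methods' t-test. Ces1g, a carboxylesterase, was higher by 0.62 and called when any 1 array was left out.

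The list on cysteine supply, which also includes a gene that breaks down cysteine, had 1 gene called lower and 2 called higher of 11. Of all genes 3.5% were lower and 3.08% higher. Slc3a2, the heavy chain that carries the cystine importer to the membrane, was at 6.97, 6.97 and 7.08 with vehicle and at 6.51, 6.64 and 6.74 with telmisartan. The groups did not overlap, and the difference was -0.37 ± 0.11 in log2 (± SE, limma, unadjusted p = 0.00779). Cdo1, the dioxygenase that breaks down cysteine, was at 10.35, 10.22 and 10.11 against 10.56, 10.75 and 10.68. It was higher in every telmisartan liver, by 0.44 ± 0.11 in log2 (± SE, limma, unadjusted p = 0.00431). Gnmt, which uses the methyl donor S-adenosylmethionine, was higher by 0.37 ± 0.10 in log2 (± SE), at 9.85, 9.72 and 9.78 against 10.05, 10.19 and 10.21. All 3 passed the methods' t-test too and stayed called whichever array was left out, though no adjusted p passed 0.05.
Glutathione turnover and use held 3 higher and 0 lower of 26 genes, against 3.08% higher and 3.5% lower of all genes, with a median of 0.00. Chac2, which cleaves glutathione, was higher by 0.35. It was called neither with the methods' t-test, the arrays centred on their medians or a replicate block, nor when vehicle 2, vehicle 3, telmisartan 2 or telmisartan 3 was left out. Gpx6 and Mgst2, higher by 0.75 and 0.41, were dim, with means of 2.76 and 2.30 in log2 intensity, and neither passed the methods' t-test. Gpx6 was at 3.80 on telmisartan 3 against 2.86 and 2.73 on the other telmisartan arrays, and its difference was 0.41 without telmisartan 3. The call of Mgst2 was also lost without vehicle 1 or telmisartan 3.
Thioredoxin-like proteins and methionine sulfoxide reductases had 1 lower of 21 genes, Msrb3 at -0.31, whose call was lost without telmisartan 2 (p of 0.0503). Further NADPH sources had no call among 14 genes, with a median of -0.16. The list on selenoprotein synthesis, which also includes selenoproteins themselves and selenium-binding proteins, had 1 lower of 16. This was the elongation factor Eefsec at -0.33, which was not called when vehicle 3 or telmisartan 1 was left out.
The list on superoxide and peroxide producers had 3 of 20 genes called lower and none higher. Of all genes 3.5% were lower and 3.08% higher. This list also includes partners of such enzymes, Duoxa1 among them, and Mpo, which uses hydrogen peroxide. Cybb, the catalytic subunit of the phagocyte NADPH oxidase, was at 6.09, 6.26 and 6.42 against 5.93, 5.93 and 5.89, which differed by -0.34 ± 0.11 in log2 (± SE, limma, unadjusted p = 0.0171). Its call was lost without vehicle 3. Maoa, a monoamine oxidase that releases hydrogen peroxide, gave -0.71 with overlapping groups, and Duoxa1, a dim gene with a mean of 2.26, gave -0.32. The calls of both were lost without vehicle 3, telmisartan 2 or telmisartan 3 and with the methods' t-test, that of Maoa also without vehicle 2 and that of Duoxa1 also without vehicle 1.

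**Figure D4:**
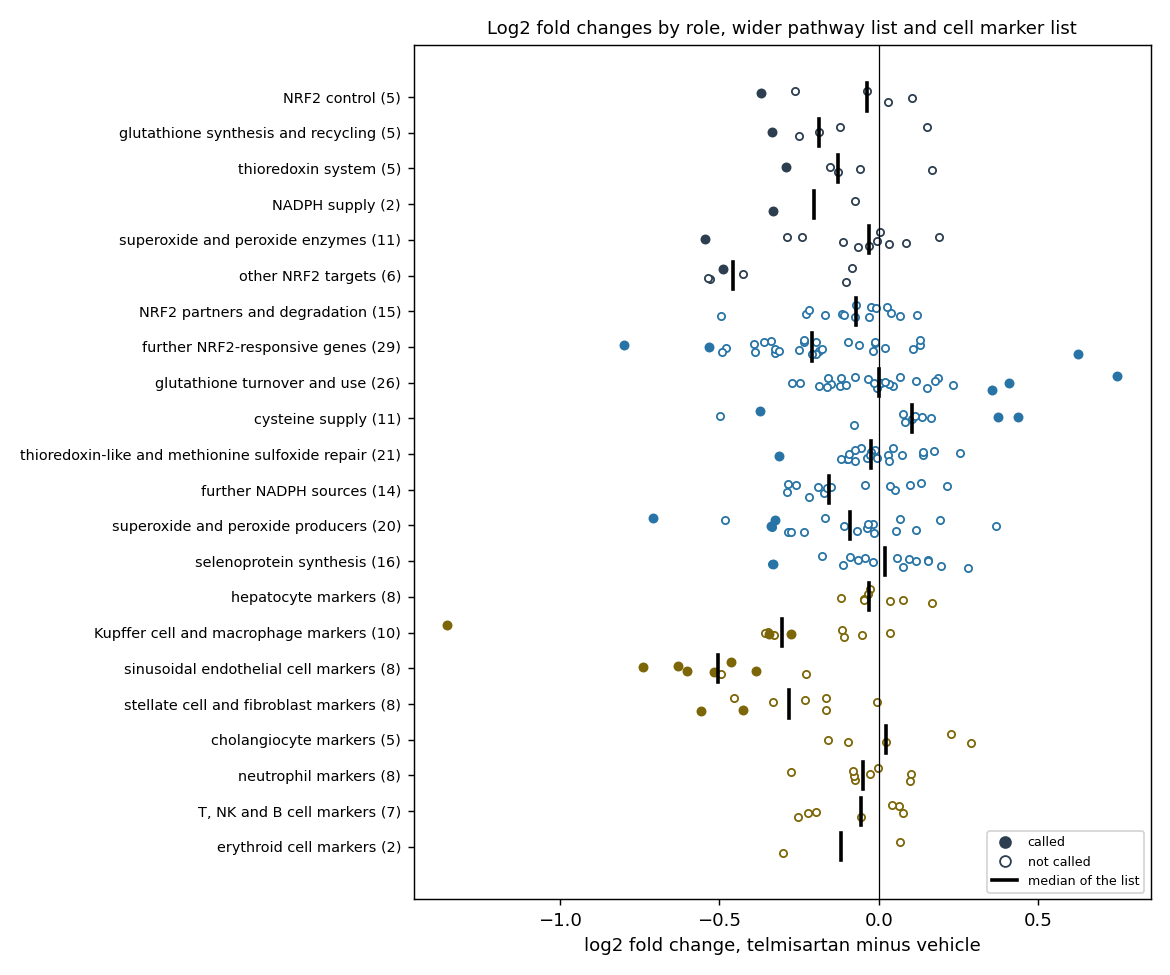
Log2 fold changes, telmisartan minus vehicle (x axis), of single genes in the 6 functions of the module, the 8 wider lists and the 8 lists of cell markers, with the number of measured genes in parentheses. Filled points are called, open points are not, and black bars are list medians. All called genes of the module lie below 0, while the wider lists on glutathione use and cysteine supply hold called genes above 0.

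The cell types of the sampled liver were read from marker lists on the same arrays, since in whole tissue fewer cells of a type and less RNA per cell cannot be told apart. Of 8 hepatocyte markers, among them Alb and Hnf4a, none was called, and their summed intensity was 23570 to 24002 with vehicle and 22999 to 24280 with telmisartan. Of 8 sinusoidal endothelial markers, 6 were called lower, where 3.5% of all genes and 5.37% of those with a mean of at least 4 were. Their median was -0.51, and their summed intensity was 651 to 814 with vehicle against 417 to 628 with telmisartan, which do not overlap. Kupffer cell and macrophage markers had 3 lower of 10, with sums of 963 to 1528 against 930 to 1052. Stellate cell and fibroblast markers had 2 lower of 8, with sums of 684 to 894 against 507 to 700. No marker was called among 5 of cholangiocytes, 8 of neutrophils, 7 of T, NK and B cells and 2 of erythroid cells, and all neutrophil and lymphocyte markers were below 4 in log2 intensity on every array. The part of these shifts in the levels of Nfe2l2, Gclm, Txnrd1, Pgd, Gpx3, Ugdh and Cybb was not tested.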

How the data were processed

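Gene expression was read in 3 livers per treatment on Affymetrix Mouse Gene 2.0 ST arrays. The authors applied RMA (version not given in the sources used here) to all arrays and deposited linear intensities, from 1.417 to 7834.8, for 31873 probe sets with signals common to all samples. All 6 columns were used, log2 values were taken without a pseudocount, and nothing was normalized again.

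The probe table paired 23094 probe sets with 1 symbol, 1770 with several, and did not list 7009. The 23094 were fitted with limma 3.58.1 in R 4.3.3 (lmFit, eBayes, 2-sided, prior degrees of freedom 4.38) and adjusted by Benjamini-Hochberg. Each gene was represented by the probe set with the highest mean. The scripts were tested on simulated data, with a pass mark only for changes larger than those of the members called here. No pass mark was set at 1.2-fold. Precision is limited by the number of arrays, and dim probe sets have little signal over background.

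The members and the lists were chosen with earlier results of these data known. By rule, values on every array are given for members that were called or whose groups did not overlap, and the others by range, naming the lowest and highest. The text goes beyond this rule: every other measured member is given by its own fold change in place of a range, and Gclc, Sod3, Cat, Cbr1, Cbr3 and Nqo1, chosen after their values were seen, also by their arrays. In the wider lists called genes are named, at most 3 per direction by size. Alternatives were 2 scalings, a filter on dim probe sets, the methods' t-test, an intensity trend, means over probe sets, all probe sets in the fit, a replicate block, leaving out each array and, chosen after seeing the data, no fold threshold. RefSeq promoters of GRCm38.p6 were searched for motifs with exact letters.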

Additional observations from a re-analysis of the deposited data

How the results depend on the processing

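Each of 4 counts was recomputed under 15 alternatives. The number of members called lower was 6 and ranged from 4 to 9 over all of them. It was 7 with quantile normalization, 9 with the arrays centred on their medians and 6 among probe sets with a mean of at least 4. With the methods' t-test it was 5. It was 8 without a fold threshold, an alternative chosen after seeing the data, which added Sqstm1 and Gsr. In this order 3.55%, 4.11%, 5.45%, 1.75% and 3.74% of all genes tested were called lower, against 3.5% in the main fit. Leaving out 1 array gave 4 to 9, of which 4 or 5 were among the 6 genes, where 2.63% to 4.41% of all genes were lower. Nfe2l2 and Ugdh were called under each of the 15 alternatives. The number called higher was 0, and it ranged from 0 to 1 when 1 array was left out, the 1 gene being Prdx4 without vehicle 1. Of the wider lists, 6 genes were higher (3 with the methods' t-test, 4 to 7 when 1 array was left out). Of all 22087 genes 681 were higher (325 with the methods' t-test, 576 to 767 when 1 array was left out). In the wider lists 8 genes were lower, against 4 with the methods' t-test and 13 with the arrays centred on their medians. The count was 13 with a replicate block and 5 to 18 when 1 array was left out. With the replicate block 3.45% of all genes were lower, and the other shares are those given above beside the members. Of the genes recomputed one by one, none changed sign. Arrays of the same replicate number did not deviate together (correlations of 0.04, -0.02 and 0.03 across probe sets, against -0.07 to 0.06 for different numbers). The labels do not say whether the numbers pair the mice, and with 3 arrays per group this check cannot exclude it. The fit with the replicate block called 7 members lower, the 6 and Osgin1. The cause of these shifts was not tested. Genes near the lower end of the arrays, such as Slc7a11, Gpx2, Gpx6 and Mgst2, have little signal over background, and the 3 arrays per group limit all intervals.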
